A study of Mus musculus with 14 samples.

Results

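The genes described here encode the enzymes that methylate lysine 9 of histone H3 (H3K9), their cofactors and the proteins that read the mark. They are 10 genes of 20238 gene symbols measured, and they were chosen by name: the methyltransferases Suv39h1, Suv39h2, Setdb1, Ehmt1 and Ehmt2, the cofactors Trim28 and Atf7ip, and the heterochromatin protein 1 (HP1) genes Cbx1, Cbx3 and Cbx5. RNA was sequenced from single mouse embryos at the two-cell stage, made by somatic cell nuclear transfer (SCNT), in which an oocyte without its own chromosomes receives the nucleus of a body cell. All 14 embryos came from B6D2F1 oocytes that received cumulus cell nuclei, were activated with strontium in the presence of cytochalasin B and were cultured in medium with deionized bovine serum albumin, the Control embryos included. They were collected at 28 h, which the labels count from nuclear transfer. The study's methods count it from egg activation.

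The treated embryos received trichostatin A (TSA), a histone deacetylase inhibitor, at 50 nM, vitamin C (VC), a cofactor of enzymes that remove methyl groups from histones and DNA, at 10 µg/ml, or both, within time windows counted from the start of activation. TSA was always given from 0 to 8 h. VC was given from 0 to 8 h, called early VC here, or from 8 to 15 h, called late VC. There were 3 Control embryos without either drug, 3 embryos with TSA alone, 1 with early VC alone, 2 with late VC alone, 2 with TSA and early VC (the concurrent treatment) and 3 with TSA and late VC (the sequential treatment). The plots name the treatments by drug and time window. The labels number the embryos within a treatment, and they do not say whether embryos came from separate oocyte donors or days. The study describes separate nuclear transfer experiments for the sequential embryos and does not say so for each of the other treatments. The errors below measure the spread between single embryos. Each library was made from 2 of 9 µl of the RNA of 1 embryo at the two-cell stage, and its values do not give the amount of RNA per embryo.

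As background, methylated H3K9 marks silent chromatin. Suv39h1 and Suv39h2 trimethylate H3K9 at the repeats around centromeres, Setdb1 trimethylates it at retroelements and imprinted regions, where Trim28 brings it through zinc finger proteins and Atf7ip stabilizes it, and Ehmt1 and Ehmt2 form a pair that mono- and dimethylates H3K9 in euchromatin. The HP1 proteins bind the methylated lysine through their chromodomains, and Cbx5 (HP1 alpha), Cbx1 (HP1 beta) and Cbx3 (HP1 gamma) differ in where they sit on chromatin. In SCNT embryos the methylation that the donor nucleus carries along is a known barrier to the start of embryonic transcription at the two-cell stage.

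The promoters of the HP1 genes are shown because the RNA of Cbx3 and Cbx5 reached 1 RPKM, the unit explained below, in all 14 embryos and that of Cbx1 in 5. The window runs from 250 bases before to 50 bases after the first transcription start listed for each gene in RefSeq (GRCm38.p6), and capitals mark CG dinucleotides. The Cbx1 window is at chr11:96788885-96789184 on the plus strand, that of Cbx3 at chr6:51470366-51470665 on the plus strand and that of Cbx5 at chr15:103239803-103240102 on the minus strand.
Cbx1: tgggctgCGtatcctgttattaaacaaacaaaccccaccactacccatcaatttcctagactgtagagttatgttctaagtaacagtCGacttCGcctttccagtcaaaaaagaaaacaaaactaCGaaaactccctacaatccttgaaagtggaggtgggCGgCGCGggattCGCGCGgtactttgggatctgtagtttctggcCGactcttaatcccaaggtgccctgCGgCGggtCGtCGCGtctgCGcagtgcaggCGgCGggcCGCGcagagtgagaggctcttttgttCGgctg
Cbx3: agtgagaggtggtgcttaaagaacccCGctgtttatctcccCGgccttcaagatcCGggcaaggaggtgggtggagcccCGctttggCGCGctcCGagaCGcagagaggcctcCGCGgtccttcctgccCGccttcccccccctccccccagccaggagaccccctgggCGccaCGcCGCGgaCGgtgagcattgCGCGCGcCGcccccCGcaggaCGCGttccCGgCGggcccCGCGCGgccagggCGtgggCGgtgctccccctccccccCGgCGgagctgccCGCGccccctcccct
Cbx5: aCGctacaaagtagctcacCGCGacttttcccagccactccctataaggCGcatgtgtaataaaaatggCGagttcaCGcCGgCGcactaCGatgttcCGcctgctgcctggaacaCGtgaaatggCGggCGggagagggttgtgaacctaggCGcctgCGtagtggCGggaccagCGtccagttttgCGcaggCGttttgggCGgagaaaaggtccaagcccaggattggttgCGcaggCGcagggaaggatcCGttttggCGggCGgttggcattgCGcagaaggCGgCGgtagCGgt
The 3 windows held 22, 34 and 29 CG dinucleotides, respectively. Over all 10 genes the first listed promoter held between 15 (Suv39h1 and Setdb1) and 34 (Ehmt1 and Cbx3), with a median of 28.5, against a median of 7 over the 32851 promoters of the table, and 34.6% of all promoters held 15 or more. None of the 10 contained TATAAA on either strand, which 13.6% of all promoters did.

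In the genome build of the files (mm9), Suv39h1 lies on chromosome X (7638297 to 7651886), Suv39h2 on chromosome 2 (3373087 to 3392303), Setdb1 on chromosome 3 (95127447 to 95161124), Ehmt1 on chromosome 2 (24646289 to 24775129) and Ehmt2 on chromosome 17 (35035414 to 35050997). Trim28 lies on chromosome 7 (13609501 to 13616384), Atf7ip on chromosome 6 (136467372 to 136555898), Cbx1 on chromosome 11 (96650441 to 96669954), Cbx3 on chromosome 6 (51420359 to 51433703) and Cbx5 on chromosome 15 (103021975 to 103070247). The values count reads on their exons.

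Between 3021540 and 13589389 reads were counted per embryo, and 3104 to 6162 genes reached 1 RPKM (the reads of a transcript divided by its length in kilobases and by the reads counted in the embryo). The range was 3576 to 4979 genes in Control, 3298 to 3966 in TSA and 5081 to 5289 in sequential embryos. Of 7 oocyte markers, 3 (Bmp15, Oog1 and Oosp1) reached 1 RPKM in all 14 embryos, while H1foo did so in 3. Of 6 markers of the two-cell stage, 4 reached it in at least 7 embryos, with Zfp352 in 13 of 14. Zscan4c reached it in 3 embryos and Zscan4d in 4. The summed level of the two-cell markers was 4.96 to 270.04 RPKM in Control, 173 to 633 RPKM in TSA and 178 to 363 RPKM in sequential embryos. Of 10 granulosa and cumulus cell markers, Amhr2 alone reached 1 RPKM in more than 1 embryo (7 of 14), while Fshr and Inhba were at 0 throughout, and their summed level was 0 to 144 RPKM.

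Levels of the 10 genes differed widely between embryos of the same treatment, as the plot of all values by embryo shows. By the median over the 14 embryos, on the RPKM scale of the full-length entry, Trim28 stood first at 114 RPKM, followed by Cbx3 at 72.6, Suv39h1 at 40.0, Cbx5 at 17.2, Atf7ip at 15.5, Suv39h2 at 10.6, Setdb1 at 7.54, Ehmt1 at 1.17, Cbx1 at 0.372 and Ehmt2 at 0.135 RPKM. Every pair of neighbours in this order overlapped in their middle range (from the lower to the upper quartile), and the higher neighbour exceeded the lower in 7 to 10 of 14 embryos, so the order of neighbours was not larger than their spread. Trim28, Cbx3 and Cbx5 reached 1 RPKM in all 14 embryos, which 845 of the 15352 genes with any reads did (5.50%). Atf7ip reached it in 11 embryos, Suv39h2 in 10, Suv39h1 and Setdb1 in 9, Ehmt1 in 7 and Ehmt2 and Cbx1 in 5.

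**Figure D1:**
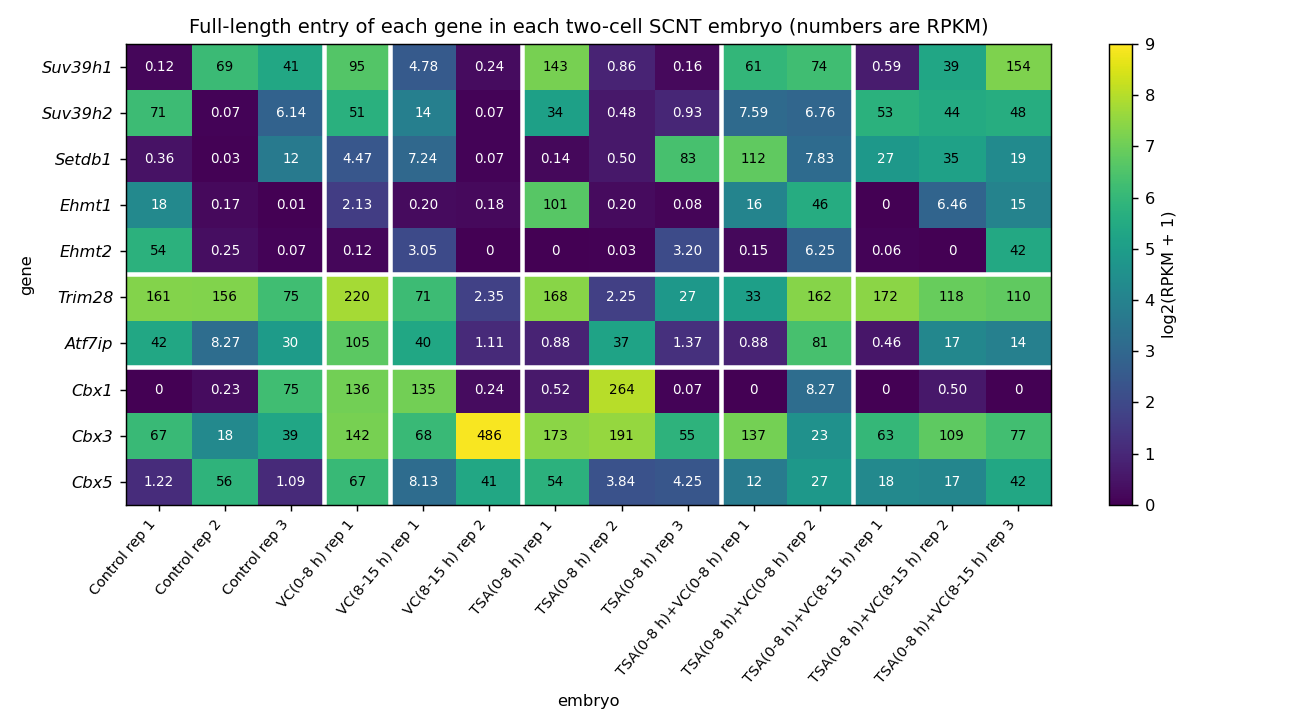
RPKM of the full-length entry of each of the 10 genes (rows) in each of the 14 embryos (columns, grouped by treatment), with the colour giving log2(RPKM + 1). Trim28, Cbx3 and Cbx5 were at 1 RPKM or more in all 14 embryos, while Cbx1 and Ehmt2 were below 1 RPKM in 9 of 14.

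Suv39h1, which acts on pericentric repeats, was above 39 RPKM in 8 embryos, below 1 RPKM in 5 and in between in 1, and high and low embryos occurred within a treatment. It was measured at 0.118, 68.5 and 40.8 RPKM in the Control embryos, at 143, 0.862 and 0.164 RPKM with TSA, and at 0.591, 39.2 and 154 RPKM under the sequential treatment. The 3 treatments each held at least 1 embryo below 1 RPKM beside at least 1 above 39 RPKM, and so overlapped over nearly their whole range. The 2 concurrent embryos had 61.1 and 74.1 RPKM, the 2 late VC embryos 4.78 and 0.244 RPKM, and the single early VC embryo 94.9 RPKM.

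Its paralogue Suv39h2 gave the most even values of the 5 methyltransferases under the sequential treatment. It was measured there at 52.7, 44.1 and 48.3 RPKM, a mean of 48.4 ± 4.33 (SD, n = 3). The TSA embryos had 33.9, 0.478 and 0.934 RPKM and were all lower, whereas the Control embryos, at 71.3, 0.0680 and 6.14 RPKM, overlapped with the sequential treatment through replicate 1. The 2 concurrent embryos agreed closely at 7.59 and 6.76 RPKM, the 2 late VC embryos had 13.6 and 0.0711 RPKM, and the early VC embryo had 51.3 RPKM. Suv39h1 exceeded Suv39h2 in 9 of 14 embryos. Both reached 1 RPKM in 8 embryos, neither did in 3, only Suv39h1 in 1 and only Suv39h2 in 2.

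Setdb1 was at 26.6, 34.5 and 18.7 RPKM under the sequential treatment, on its full-length entry of 4619 bases, and all 3 of these values were above those of the Control embryos, at 0.359, 0.0315 and 11.7 RPKM. With TSA it was at 0.143, 0.499 and 82.5 RPKM, and so overlapped with both. The 2 concurrent embryos had 112 and 7.83 RPKM, the 2 late VC embryos 7.24 and 0.0659 RPKM and the early VC embryo 4.47 RPKM. Setdb1 also has 2 further entries, of 176 and 159 bases as inferred from the values. In replicate 3 of the sequential treatment 1035 reads fell on the 176 bases, beside 1060 on the 4619 bases. Adding the entries, as the main test did, raised Setdb1 in that embryo to 502 RPKM, so its results are given with the full-length entry as well. The end of Setdb1 overlaps Lass2, and whether reads were counted by strand is not given in the sources used here.

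The pair Ehmt1 and Ehmt2 was low in most embryos. Ehmt1 had 17.8, 0.173 and 0.0145 RPKM in Control, 101, 0.202 and 0.0840 RPKM in TSA, and 0, 6.46 and 15.3 RPKM in sequential embryos. It was at 15.5 and 46.3 RPKM under the concurrent treatment, at 0.200 and 0.180 RPKM with late VC and at 2.13 RPKM with early VC. In the embryo at 0, 3 reads would have stood for 0.136 RPKM, a floor that covers counting error only.

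Ehmt2 exceeded 10 RPKM in only 2 embryos, replicate 1 of Control (54.0 RPKM) and replicate 3 of the sequential treatment (42.2 RPKM). In the other 12 it lay between 0 and 6.25 RPKM, and it was at 0 in 3 of them, where 3 reads would have stood for 0.0960 to 0.247 RPKM. Ehmt1 and Ehmt2 reached 1 RPKM together in 3 embryos, Ehmt1 alone in 4, Ehmt2 alone in 2 and neither in 5. Their levels were within 10-fold of each other in 6 of 14 embryos.

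Over the 5 methyltransferases, 2 embryos had all of them at 1 RPKM or more (replicate 2 of the concurrent and replicate 3 of the sequential treatment) and 2 had none (replicate 2 of TSA and replicate 2 of late VC). Their summed level was 0.561 to 278 RPKM, with a median of 106 RPKM. The 2 embryos without any were those with the fewest genes at 1 RPKM, 3298 and 3104, and the first of the 2 embryos with all 5 had the most, 6162. The part of the number of genes detected in these levels was not tested.

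Trim28, the corepressor that zinc finger proteins recruit, was the highest of the 10 genes by its median and was present in every embryo. It was measured at 161, 156 and 74.8 RPKM in Control and at 172, 118 and 110 RPKM in sequential embryos, means of 131 ± 48.6 and 133 ± 33.5 (SD, n = 3 each). With TSA it was at 168, 2.25 and 26.5 RPKM, so replicate 1 was above every Control embryo and the other two were below every one. With late VC it was at 70.6 and 2.35 RPKM, under the concurrent treatment at 33.0 and 162 RPKM and with early VC at 220 RPKM. The lowest values, 2.25 and 2.35 RPKM, stood for 57 and 50 reads and belonged to the 2 embryos without a methyltransferase at 1 RPKM.

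Atf7ip, which stabilizes Setdb1 in the nucleus, was at 41.5, 8.27 and 29.8 RPKM in Control embryos. It was at 0.877, 36.6 and 1.37 RPKM with TSA and at 0.458, 16.9 and 14.1 RPKM under the sequential treatment, and both treatments overlapped with Control. The 2 concurrent embryos had 0.880 and 81.4 RPKM, the 2 late VC embryos 39.8 and 1.11 RPKM and the early VC embryo 105 RPKM. Trim28, Setdb1 and Atf7ip all reached 1 RPKM in 7 of 14 embryos. Taken singly, Trim28 reached it in 14, Atf7ip in 11 and Setdb1 in 9, and whether the 3 occur together was not tested. In 4 embryos only Setdb1 of the 3 was lower, in 2 only Atf7ip, and in 1 both were.

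Among the HP1 genes, Cbx3 was the highest in 9 embryos, Cbx1 in 3 and Cbx5 in 2, on the RPKM scale of the full-length entries. Reads of Cbx3 and of its processed copies cannot be told apart, as described below, so these ranks and shares are uncertain. Cbx3 took a median of 70.5% of the summed RPKM of the 3 genes, with a range of 24.2% to 98.2%, Cbx5 a median of 10.8% (0.836% to 75.5%) and Cbx1 a median of 0.267% (0% to 64.8%). Cbx1 was the leading gene in replicate 3 of Control, replicate 1 of late VC and replicate 2 of TSA, and Cbx5 in replicate 2 of Control and replicate 2 of the concurrent treatment. The 3 Control embryos were therefore each led by a different HP1 gene, as the plot of shares by embryo shows.

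**Figure D2:**
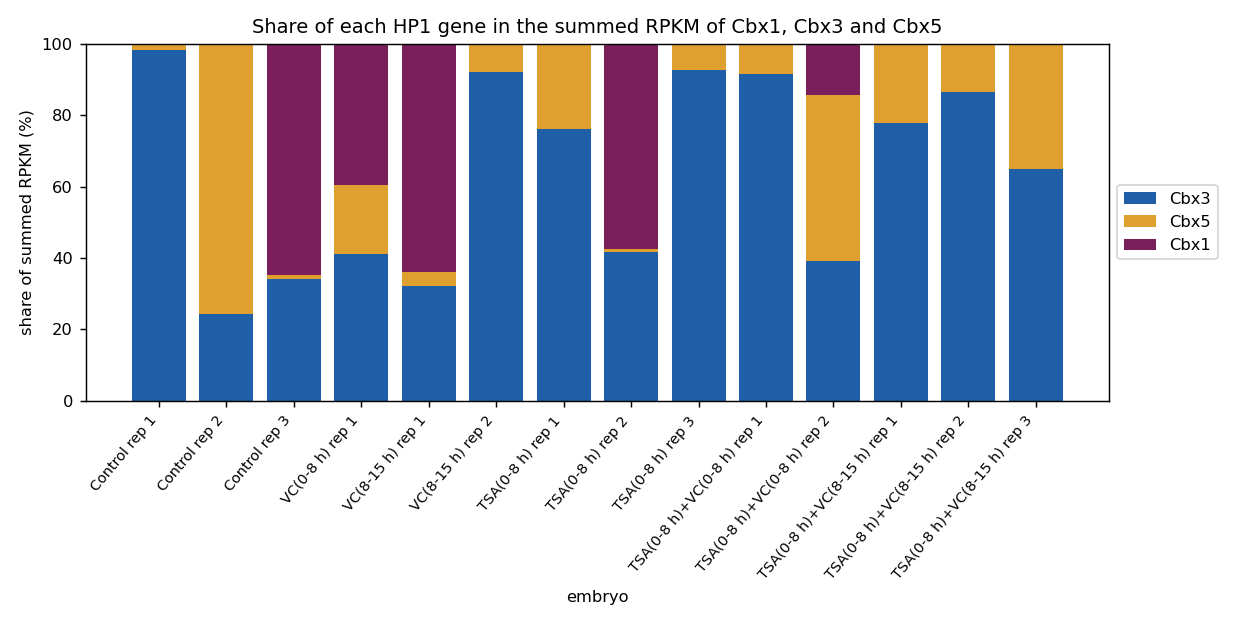
Share of Cbx3, Cbx5 and Cbx1 in their summed RPKM (vertical axis, %) in each of the 14 embryos, ordered by treatment. Cbx3 was the largest part in 9 embryos, and Cbx1 was below 1% in 9 and above 14% in the other 5. The part of Cbx3 may hold reads of its processed copies.

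Cbx3 was at 67.0, 18.0 and 39.4 RPKM in Control, at 173, 191 and 55.4 RPKM in TSA and at 62.6, 109 and 77.1 RPKM in sequential embryos. It varied least of the 10 genes: its SD within treatments was 1.18 on the log2(RPKM + 1) scale, and 6.68% of the 4987 genes tested over all embryos had a smaller one, while their median was 2.23. Its highest value, 486 RPKM, was in replicate 2 of late VC, whose other embryo had 68.1 RPKM. The concurrent embryos had 137 and 22.6 RPKM and the early VC embryo 142 RPKM. Cbx3 has processed copies in the mouse genome. Of 368 windows of 50 bases, the read length, along its transcript, 332 (90.2%) also matched outside the gene with at most 2 mismatches and 313 (85.1%) matched there exactly, so reads of Cbx3 and of its copies cannot be told apart and its level is uncertain. With at most 2 mismatches the share was 12.7% for Cbx1 and 9.65% for Setdb1, and at most 2.34% for the other 7 genes. Exact matches made up 1.41% for Cbx1 and 8.46% for Setdb1, the latter at 1 other place in the genome. The Cbx1 windows ran along 1824 bases, while its counted entry has 1274.

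Cbx5 was at 1.22, 56.3 and 1.09 RPKM in Control, at 54.1, 3.84 and 4.25 RPKM in TSA and at 17.8, 16.6 and 41.6 RPKM in sequential embryos, on its entry of 8902 bases. The sequential treatment lay inside the range of the Control embryos, 2 of which were close to 1 RPKM. The 2 late VC embryos had 8.13 and 41.1 RPKM, the 2 concurrent embryos 12.5 and 26.8 RPKM and the early VC embryo 66.6 RPKM. A further Cbx5 entry took 1041 reads in replicate 3 of the sequential treatment and 26 in the early VC embryo, and added to the former it gave 1051 RPKM. Its length of 84 bases and its reads were inferred from these 2 values and may be larger by a common factor.

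Cbx1 was at 0, 0.229 and 74.7 RPKM in Control and at 0.520, 264 and 0.0668 RPKM in TSA embryos. Under the sequential treatment it was at 0, 0.505 and 0 RPKM, so this was the one treatment of 3 embryos with none at 1 RPKM. It was at 135 and 0.239 RPKM with late VC, at 0 and 8.27 RPKM under the concurrent treatment and at 136 RPKM with early VC. The gene was at 0 in 4 embryos, where 3 reads would have stood for 0.192 to 0.722 RPKM. Control held 2 embryos as low as those of the sequential treatment, and the groups overlapped.

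**Figure D3:**
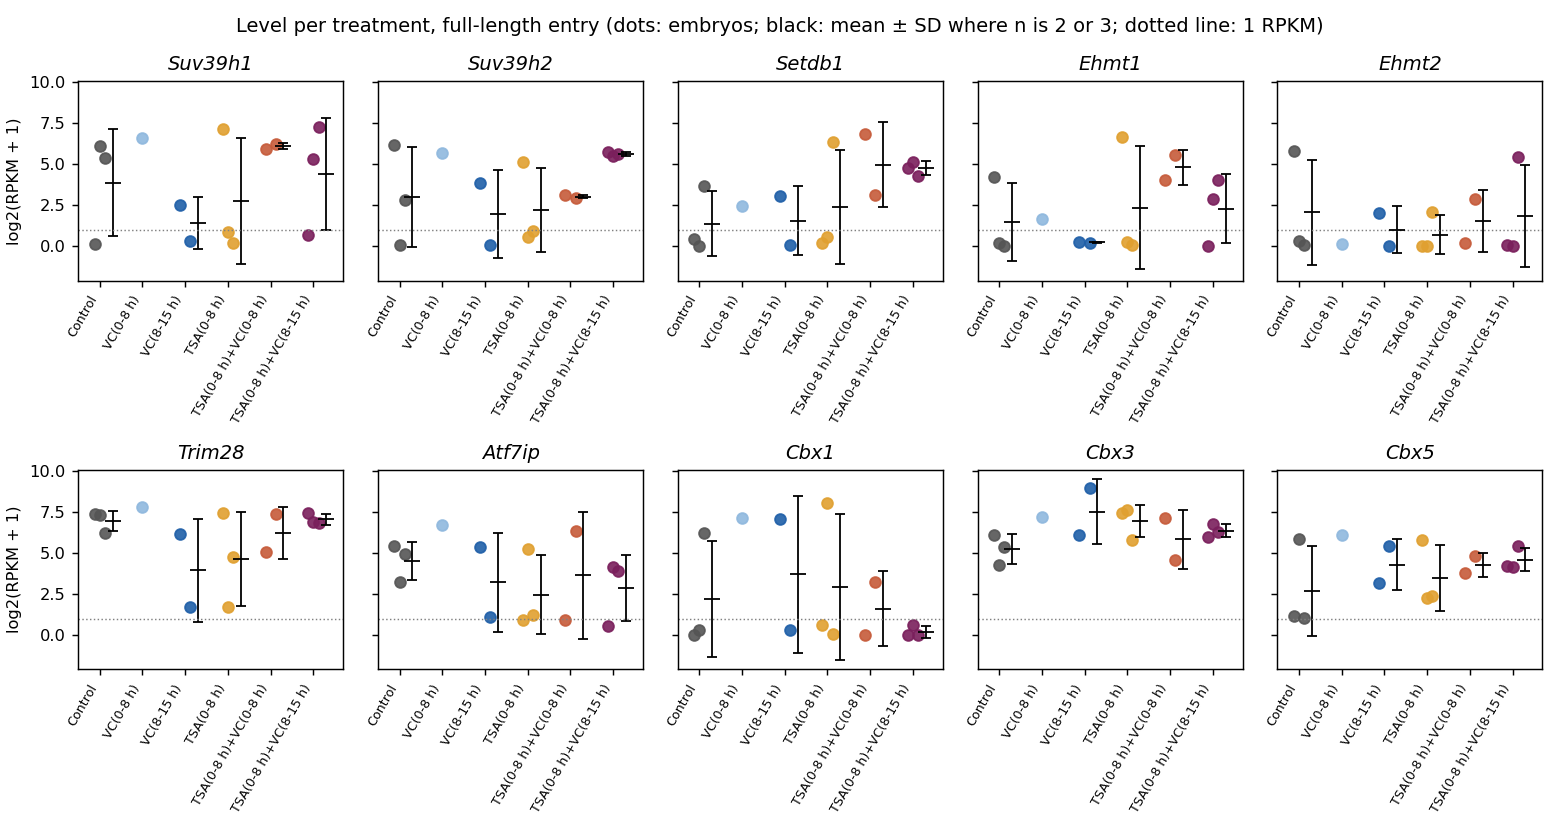
Level of each of the 10 genes as log2(RPKM + 1) of the full-length entry (vertical axis) in each treatment, with 1 dot per embryo, the mean ± SD in black where a treatment had 2 or 3 embryos and a dotted line at 1 RPKM. Suv39h2 and Setdb1 lay close together in the 3 sequential embryos (44.1 to 52.7 and 18.7 to 34.5 RPKM), while the Control embryos ran from 0.0680 to 71.3 and from 0.0315 to 11.7 RPKM.

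The sequential treatment was compared with Control to ask whether RNA levels of the H3K9 machinery differed when TSA and VC were given one after the other. None of the 10 genes passed limma's test at an adjusted p-value under 0.05. The filter, 1 RPKM in all 3 embryos of either group, let 6 of the 10 enter, and left out Suv39h1, Ehmt1, Ehmt2 and Cbx1. Over all 3297 genes tested the share that passed was 0.0%. At an unadjusted p-value under 0.05, 1 of the 6 genes passed, against 17.7% of all genes tested, and in 1 of 6 the embryos of the 2 groups did not overlap, against 21.4%. Both counts are Setdb1, and neither share stands above the background. Setdb1 and Suv39h2 passed the filter only through the sequential embryos and Atf7ip only through the Control embryos, as 40.9% and 13.3% of the genes tested did, so the filter favoured a difference in that direction for these 3. Trim28, Cbx3 and Cbx5 passed it in both groups.

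Setdb1 had the highest log2 fold change of the 6, 5.12 (SE 1.81, adjusted p = 0.137), on the log2(RPKM + 1) scale, which understates the change of low genes. Within the pools of libraries that hold same-numbered embryos the log2 differences were 4.95, 5.11 and 5.31. With the full-length entry alone, the log2 fold change was 3.36 (SE 1.62, adjusted p = 0.271), and the differences within pools were 4.34, 5.11 and 0.64. On read counts recovered from the values, limma-voom gave Setdb1 a log2 fold change of 6.16 with an adjusted p-value of 0.0211, a call that 9.61% of all genes received in that fit. This fit used the same filter and the reads of all entries. In sequential replicate 3, 1035 of the 2104 Setdb1 reads fell on the 176-base entry. Over all alternatives its adjusted p-value ran from 0.0211 to 0.724, and it was 0.545 in limma with a filter that ignored the groups.

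The log2 fold changes of the other tested genes were 3.45 for Cbx5 (1.91 with its full-length entry), 2.59 for Suv39h2, 1.13 for Cbx3, 0.08 for Trim28 and -1.65 for Atf7ip, with adjusted p-values of 0.388 or more in limma. The median of the 6 was 1.86 and that of all genes tested 0.78, which was -0.02 with median-ratio scaling, where the median of the 6 was 1.25. Without Control replicate 2, the Control embryo with the fewest genes at 1 RPKM, the medians were 0.88 for the 6 genes and -0.02 for all genes tested. With 2 Control embryos left, the filter let in 4008 genes instead of 3297. For Trim28, the 95% confidence interval of the log2 fold change ran from -1.75 to 1.91, and median-ratio scaling turned its sign (-0.73). For Suv39h2, the within-pool log2 differences were -0.43, 5.40 and 2.79.

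TSA alone was compared with Control to compare levels after the deacetylase inhibitor without VC. Only Trim28, Atf7ip, Cbx3 and Cbx5 entered this test, and 0 of the 4 passed by limma or by limma-voom at an adjusted p-value under 0.05, against 0.0% of 2471 genes by limma and 0.0405% by limma-voom. Only the Control embryos let Atf7ip through the filter. At an unadjusted p-value under 0.05 it was 0 of 4 against 14.9%, and 0 of 4 showed no overlap between groups against 18.2%. The log2 fold changes were -2.33 for Trim28 (SE 1.59, adjusted p = 0.545), -2.06 for Atf7ip (SE 2.03, adjusted p = 0.719), 1.73 for Cbx3 (SE 1.40, adjusted p = 0.626) and 0.80 for Cbx5 (SE 1.91, adjusted p = 0.902). Cbx3 was higher in the TSA embryo of every pool, by 1.36, 3.34 and 0.48 on the log2 scale, and the groups still overlapped at 55.4 against 67.0 RPKM. Trim28 was lower in 2 of 3 pools, with differences of 0.06, -5.60 and -1.46.

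The sequential treatment was also compared with TSA, to compare levels with and without late VC after TSA. Of the 5 genes that entered, 0 passed in limma and in limma-voom at an adjusted p-value under 0.05, against 0.0% of the 3115 genes tested by limma and 9.09% by limma-voom, and 0 of 5 at an unadjusted p-value under 0.05, against 18.3%. In 1 of the 5, Suv39h2, the 3 embryos with VC all exceeded the 3 without, against 21.6% of all genes without overlap. Suv39h2 and Setdb1 passed the filter only through the sequential embryos, as 49.0% of the genes tested did, so the filter favoured higher values there. The Suv39h2 log2 fold change was 3.41 (SE 1.80, adjusted p = 0.356), with within-pool differences of 0.62, 4.93 and 4.67. The log2 fold changes of the others were 3.53 for Setdb1 (2.36 with its full-length entry, where 1 of 3 pools went the other way), 2.65 for Cbx5 (1.11 with its full-length entry), 2.41 for Trim28 and -0.60 for Cbx3. All these intervals included 0. The median of the 5 was 2.65 and that of all genes tested 1.21, beside the higher number of genes at 1 RPKM in the sequential treatment given above, and the part of that number in the differences was not tested.

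**Figure D4:**
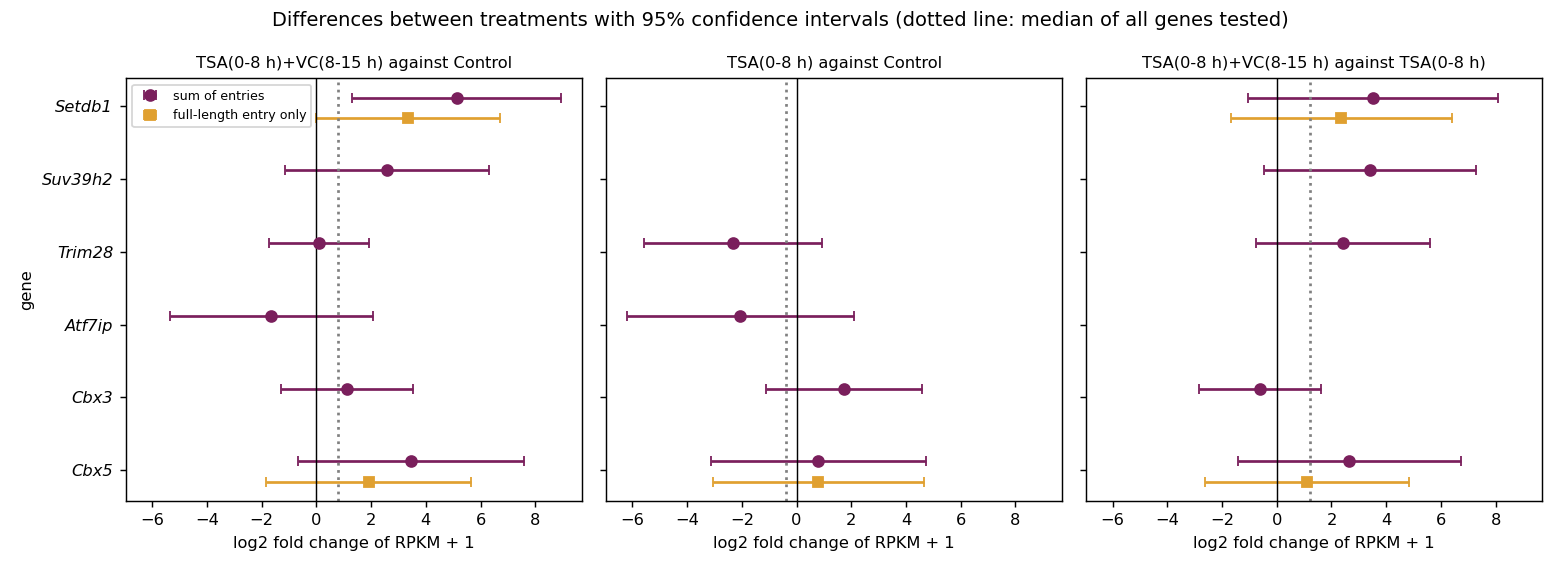
Log2 fold change of RPKM + 1 (horizontal axis) with its 95% confidence interval for the genes that entered each of the 3 comparisons, from the sum of entries (circles) and, for Setdb1 and Cbx5, from the full-length entry (squares), with the median of all genes tested as a dotted line. Only the interval of Setdb1 from the sum of entries, 1.29 to 8.95 in the sequential treatment against Control, excluded 0.

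Each drug was then tested over all 14 embryos, 8 with TSA against 6 without and 8 with VC against 6 without, in a fit with both terms. Suv39h1 and Ehmt1 entered here as well, so that 8 of the 10 genes were tested. For TSA, 0 of 8 genes passed in limma and limma-voom at an adjusted p-value under 0.05, against 0.0% of 4987 genes by limma and 0.0401% by limma-voom, and 0 of 8 at an unadjusted p-value under 0.05 against 5.9%. The log2 differences ran from -1.59 for Atf7ip to 2.23 for Setdb1 (SE 1.36, adjusted p = 0.938, and 2.10 with its full-length entry), and that of Ehmt1 was 1.82 (SE 1.25, adjusted p = 0.951). For VC, 0 of 8 passed in both tools, against 0.0201% of all genes by limma and 0.0602% by limma-voom, and 0 of 8 at an unadjusted p-value under 0.05 against 10.1%. All 8 log2 differences were above 0, from 0.18 for Ehmt1 to 2.62 for Setdb1 (SE 1.36, adjusted p = 0.515), with a median of 0.74 beside 0.60 over all genes tested. With the full-length entries the VC difference was 1.58 for Setdb1 (SE 1.35, adjusted p = 0.714) and 1.53 for Cbx5 (SE 1.25, adjusted p = 0.701), against 2.20 for Cbx5 from the sum. With median-ratio scaling the medians were -0.01 and 0.05, and Atf7ip, Cbx3, Ehmt1 and Trim28 were below 0.

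In a test of any difference among the 6 treatments, 0 of 8 genes passed in limma and limma-voom, against 0.0201% of all genes by limma and 0.1% by limma-voom, and 0 of 8 at an unadjusted p-value under 0.05 against 4.91%. The adjusted p-value of Setdb1 and Cbx5 was 0.999 in limma with their full-length entries. Whether the TSA difference itself depended on late VC was tested as an interaction over the 11 embryos of those 4 treatments. In this test 0 of 8 genes passed in limma and limma-voom at an adjusted p-value under 0.05, against 0.0% of all genes by limma and 0.0401% by limma-voom, and 1 of 8, Trim28, did at an unadjusted p-value under 0.05, against 5.29%. The interaction of Trim28 was 5.42 on the log2 scale (SE 2.32, adjusted p = 0.868): TSA alone differed from Control by a mean of -2.33, and the sequential treatment from late VC alone by 3.09, a value that rests on 2 late VC embryos at 70.6 and 2.35 RPKM. With the full-length entries the interaction was 2.17 for Setdb1 (SE 3.16, adjusted p = 0.961) and -0.50 for Cbx5 (SE 3.09, adjusted p = 0.991).

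The other genes of the pathway were taken as lists of partners and readers of H3K9 methylation and of its erasers. Unlike the levels of the 10 genes above, their RPKM values are sums over the entries of a gene, which short entries can raise. Of 22 partner genes measured, 13 entered the comparison of the sequential treatment with Control and 0 passed at an adjusted p-value under 0.05 in limma. Their median log2 fold change was 0.88, beside 0.78 over all genes tested. Without adjustment, 3 passed a p-value of 0.05, of which 2 were higher and 1 was lower, against 17.7% of all genes. At an adjusted p-value under 0.05 limma-voom called 2 of the 13, Sumo2 and Zfp57, against 9.61% of all genes. Sumo2, a small modifier that Trim28 uses to recruit Setdb1, was at 185, 1.03 and 344 RPKM against 0.185, 0.584 and 1.03 RPKM in Control (log2 fold change 5.02, SE 1.91, adjusted p = 0.162), so that the 2 groups overlapped at 1.03 RPKM and the gene passed the filter only through the sequential embryos. Chaf1a, the large subunit of the histone chaperone that deposits histones behind the replication fork, was at 159, 120 and 139 RPKM against 1.17, 42.3 and 35.9 RPKM (3.21, SE 1.36, adjusted p = 0.217). Zfp57, a zinc finger protein that brings Trim28 to imprinted regions, was at 690, 110 and 66.8 RPKM against 1903, 600 and 2113 RPKM (-2.95, SE 0.80, adjusted p = 0.111). Pogz, an HP1-binding protein, had the next smallest p-value among the lower genes, with a log2 fold change of -1.83 (adjusted p = 0.569).

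Of the 10 erasers, 5 entered the same comparison and 0 passed at an adjusted p-value under 0.05 in limma, against 1, Kdm3b, in limma-voom, where 9.61% of all genes did. Their median log2 fold change was 1.26, beside 0.78 over all genes tested. Kdm3b was also the 1 gene higher at an unadjusted p-value under 0.05, against 17.7% of all genes in either direction, and it passed the filter only through the sequential embryos. It is an enzyme that removes mono- and dimethylation of H3K9, and it was at 12.9, 39.3 and 7.80 RPKM against 0.207, 0.143 and 0.0103 RPKM (log2 fold change 3.93, SE 1.10, adjusted p = 0.111). Kdm4a, which removes trimethylation, had a log2 fold change of 2.20 (SE 1.53) and Kdm3a, a relative of Kdm3b, one of -0.76 (adjusted p = 0.830). In the other comparisons 0 genes of either list passed at an adjusted p-value under 0.05 in limma, and limma-voom called 2 of 12 partners, Adnp and Tasor, in the sequential treatment against TSA, against 9.09% of all genes, and 0 genes in the rest. Both passed the filter only through the sequential embryos and are named after their values were seen. At an unadjusted p-value under 0.05 the largest count was in the VC term, with 5 of 20 partners and 2 of 5 erasers, all higher, against 10.1% of all genes. Over all genes in that fit, 443 of those past the threshold were higher and 62 lower, and 220 and 179 with median-ratio scaling. The VC term is named here after the counts of all comparisons were seen.

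For the 3 genes with the highest medians, the genes whose RPKM ranked the embryos most alike were found among 4364 genes at 1 RPKM or more in at least 7 embryos, by Spearman correlation over the 14 embryos. The points of each correlation share a library and its depth. A rho over 0.8 was found for 6 genes with Trim28, 3 with Cbx3 and 6 with Suv39h1. The genes named are the highest of the 4364 in these same embryos, and whether they vary together elsewhere was not tested. The level of Cbx3 is uncertain, as given above. For Trim28 these were Srp54a (rho 0.851), Rpl13a (0.842) and Ccnk (0.842), for Cbx3 Pabpc1 (0.855), H2az1 (0.846) and Bpgm (0.837), and for Suv39h1 Wipi2 (0.851), Ccnb1 (0.846) and Parp1 (0.833).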

How the data were processed

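The authors trimmed the reads with cutadapt, mapped them to mm9 with TopHat, counted reads on exons of each RefSeq entry and deposited RPKM values (counts scaled to total counts and transcript length); whether reads that map to several places were kept is not given in the sources used here. The 10 genes and the gene lists were chosen with earlier results of these data known. Entries of a gene were summed. Genes at 1 RPKM or more in all embryos of either group (in at least 6 of 14 embryos for fits of all embryos) were tested with limma 3.58.1 (R 4.3.3) on RPKM + 1 in log2 units, with a trended eBayes and Benjamini-Hochberg adjustment over all genes tested at a threshold of 0.05. The script was tested on simulated data. Values are multiples of 1 read, so reads were recovered: 14531 of 14532 entries (99.99%) gave a transcript length whole within 0.001 bases, and 99.8% to 100.0% of the reads of an embryo. The smallest whole solution was taken, and lengths that were not whole were multiplied until they were. For entries with values in few embryos, the short ones of Setdb1 and Cbx5 included, length and reads may be larger by a common factor. Floors of 3 reads cover counting error only, and reads amplified by PCR are not independent molecules.

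Named genes were all 10, the 3 most alike by Spearman correlation for each of the 3 highest, and from each list the 2 smallest p-values per direction in the sequential treatment against Control. Alternatives were a pseudocount of 0.1, no filter, a minimum of 5 RPKM, a filter blind to groups, quantile normalization, median-ratio scaling, single entries, limma-voom on recovered reads, no trend, a replicate block and leaving out each embryo. Chosen after seeing the data were the longest entry of each gene and the reads of all entries over their added length. Embryos of the same number in Control, TSA alone and the sequential treatment share a sequencing pool and lane by their library identifiers. The 3 pools held 5, 6 and 3 embryos. Deviations of same-numbered embryos from treatment means correlated at 0.0253 on average (0.00912 to 0.0444), against -0.0127 (-0.0414 to 0.0171) for different numbers. Deviations within a treatment cancel out, so the second mean follows from the first and is no separate baseline. Windows were matched to NCBIM37 (the mm9 assembly) with minimap2. Python 3.11.15 was used for the other steps.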

Additional observations from a re-analysis of the deposited data

Results flagged for a closer look

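Cbx3 was the one gene of the 10 for which every TSA embryo lay above the mean of the Control embryos, by 1.73 on average on the log2(RPKM + 1) scale, while every sequential embryo lay below the mean of the late VC embryos, by -1.17 on average. The limma interaction of TSA and late VC for Cbx3 was -2.89 (SE 1.97, adjusted p = 0.910), so the difference between the TSA effects was not larger than the spread between embryos. The late VC mean comes from 2 embryos at 68.1 and 486 RPKM. The values of Cbx3 may hold reads of its processed copies. Treatments of 3 or fewer embryos could not be tested for single embryos far from the rest.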

How the results depend on the processing

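Of the 4 to 8 of the 10 genes that entered each of the 7 comparisons, 0 passed an adjusted p-value under 0.05. Ehmt2 and Cbx1 entered none of these main fits. The count stayed 0 in 150 of 151 alternative fits, those that left out each embryo in turn included (range 0 to 0). The exception was limma-voom on recovered reads for the sequential treatment against Control, with 1 gene, Setdb1, on the reads of all its entries. Over all genes tested, the counts in that comparison were 0 in the main fit, 107 with a pseudocount of 0.1, 183 with a minimum of 5 RPKM, 317 with limma-voom and 75 without Control replicate 2, of which 7 were higher and 68 lower. In TSA against Control, 274 genes were called without Control replicate 2, 270 of them lower. The median log2 fold change of the genes described here was then -2.16 over 5 genes, against -0.63 over 4 with all embryos. Without TSA replicate 2 the median was 0.27 over 4 genes. In the sequential treatment against TSA, 201, 295 and 289 genes were called without sequential replicate 1, 2 and 3, respectively. Of these, 199, 292 and 283 were higher. The filter was applied again after an embryo was left out, so its group then let in genes at 1 RPKM in only 2 embryos. Genes tested rose from 2471 to 3401 in TSA against Control without Control replicate 2, and from 3115 to 3748, 3755 and 3675 here. Most of these calls were higher in the group that had lost an embryo, the side that the loosened filter favoured. Leaving out any other single embryo gave 0 calls over all genes in these 3 comparisons. With the replicate number as a block (the pool in the fits of all embryos) the count of the 10 genes remained 0 in every comparison, and the block changed no call of theirs, while over all genes it gave 7, 5 and 168 calls in the comparisons of 3 against 3 embryos. Of 669 alternative values of the log2 fold changes of single genes, 627 kept the sign of the main value and 42 did not, none of them past the threshold. For genes at 0 the floors of 3 reads were 0.0960 to 0.722 RPKM, and they cover counting error only. With 1 to 3 embryos per treatment and a median SD of 2.23 on the log2 scale most confidence intervals span several log2 units.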
